A study of Mus musculus with 21 samples.

Results

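Chemically induced liver progenitors (CLiPs) are progenitor-like cells that rodent hepatocytes form in culture with small molecules. Here, CLiPs that had been passaged 11 to 12 times were compared, before any hepatic induction (day 0), with freshly isolated hepatocytes. The comparison was made up of the 3 arrays titled as late day 0 and the 3 titled as fresh hepatocytes, 6 of the 21 arrays of the series. The late CLiPs came from female C57BL/6 mice and were at passages 12, 12 and 11 (replicates 1, 2 and 3). The fresh hepatocytes also came from female C57BL/6 mice and, like the late CLiPs, had not been put through hepatic induction. The third fresh array carries a passage 1 entry in its labels, and it was kept with the fresh hepatocytes as its title and source say. The 3 arrays of CLiPs at passage 1 (P1) were also from female C57BL/6 mice at day 0. They were used only to show where late CLiPs differ from day-0 CLiPs of an early passage. The labels do not say whether the arrays of a group come from separate cultures or mice, so the p-values below measure the spread between these samples. The labels also do not say whether the late CLiPs trace back to 1 isolation.

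Adult hepatocytes secrete most plasma proteins, detoxify drugs, make bile acids and urea and keep blood glucose steady, and a set of transcription factors that includes HNF4A and CEBPA maintains these functions. Adult hepatocytes rarely divide. In injured liver and in culture they can lose parts of this program and take on features of bile duct and fetal liver cells, such as keratin 7, keratin 19 and SOX9, while they enter the cell cycle.

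The values are log2 signals of 1-colour Agilent arrays minus the 75th percentile of the array, so a level of 0 equals the 75th percentile and a difference of 1 is 2-fold. A gene was represented by its brightest probe. It was said to have risen or fallen where limma gave a Benjamini-Hochberg adjusted p under 0.05, over 21208 genes tested, and the difference was at least 2-fold. Genes well above background on no array of a group are called dim there, and their change is given as a minimum fold. A gene well above background on only some arrays of a group keeps its plain difference, which rests partly on signals near background. Levels of different genes come from different probes and are not set against each other. In such bulk samples, fewer cells of a type and less RNA per cell cannot be told apart.

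The groups were not measured alike. The 3 late arrays lay on a single slide and were read on one scanner with Feature Extraction 10.7.3.1, while the 3 fresh arrays lay on 3 slides and were read on another scanner with Feature Extraction 11.5.1.1. Group, scanner, software version and slide therefore cannot be told apart in any late against fresh value, and the same holds for late against P1 CLiPs. The 75th percentile signal was 1119 to 1241 on the late arrays and 291.2 to 332.4 on the fresh arrays, and 56.9% to 59.7% of probes on late arrays and 46.1% to 46.8% on fresh arrays were well above background. Adenoviral E1A RNA was added to each sample as a spike-in, and 7 of its 10 probes were well above background on all 6 arrays. Their log2 signals on the late arrays followed those on the fresh arrays with a slope of 0.999, over a span of 10.06 log2 units, and were lower on the late arrays by a median of -0.83. If the arrays are scaled to the spike-ins in place of the 75th percentile, every late minus fresh difference shifts up by about the same amount and the median over all genes becomes 2.77, so each rise or fall given here is relative to the bulk of genes on the same array. Within the late group, replicate 1 had 514 of 20164 measured genes more than 2-fold away from the mean of the other late arrays. Replicate 2 had 330 and replicate 3 had 313. Among fresh arrays, replicate 1 stood furthest apart by the same measure, with 890 of 16740 genes, against 377 and 302.

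Most of the genes tested differed between late CLiPs and fresh hepatocytes. Of 21208 genes, 5573 rose (26.3%) and 6054 fell (28.5%), and the median difference over all genes was 0.005. The ranges of the groups did not overlap for 17360 genes (81.9%). With dim genes at their minimum fold, 1135 genes were more than 16-fold lower and 648 more than 16-fold higher in late CLiPs. These counts are not bounded alike, since 2961 genes were dim in fresh hepatocytes and 685 in late CLiPs. The lowest signal well above background was -3.34 to -3.23 on fresh arrays and -4.94 to -4.70 on late arrays. A minimum rise is thus set against a higher floor than a minimum fall, and its part in the unequal counts was not tested. Counts of list members below are to be read against these shares.

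All 8 defining hepatocyte markers fell in late CLiPs, and all 6 biliary and progenitor markers rose. The 6 are a small choice, and 1 of them, Epcam, had a minimum rise of only 1.13-fold. In the longer list of progenitor and biliary markers, 21 of 31 rose and 4 fell. The gene for albumin (Alb), the main protein of blood plasma, had levels of -1.39, -0.26 and 2.60 on the late arrays and of 10.58, 10.70 and 10.60 on the fresh arrays. The late arrays all lay far below the fresh ones but spread widely among themselves. The difference was -10.31 ± 0.96 (SE, n = 3 each; limma adjusted p = 1.1e-04). On the same probe the P1 CLiPs had 8.59, 8.38 and 9.05, between the late and the fresh arrays. The gene for transthyretin (Ttr), a thyroid hormone carrier, fell by 5.85 (SE 0.38, adjusted p = 2.3e-05), with late arrays at 3.05, 4.47 and 4.32 and fresh arrays at 9.66, 9.90 and 9.81.

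**Figure D1:**
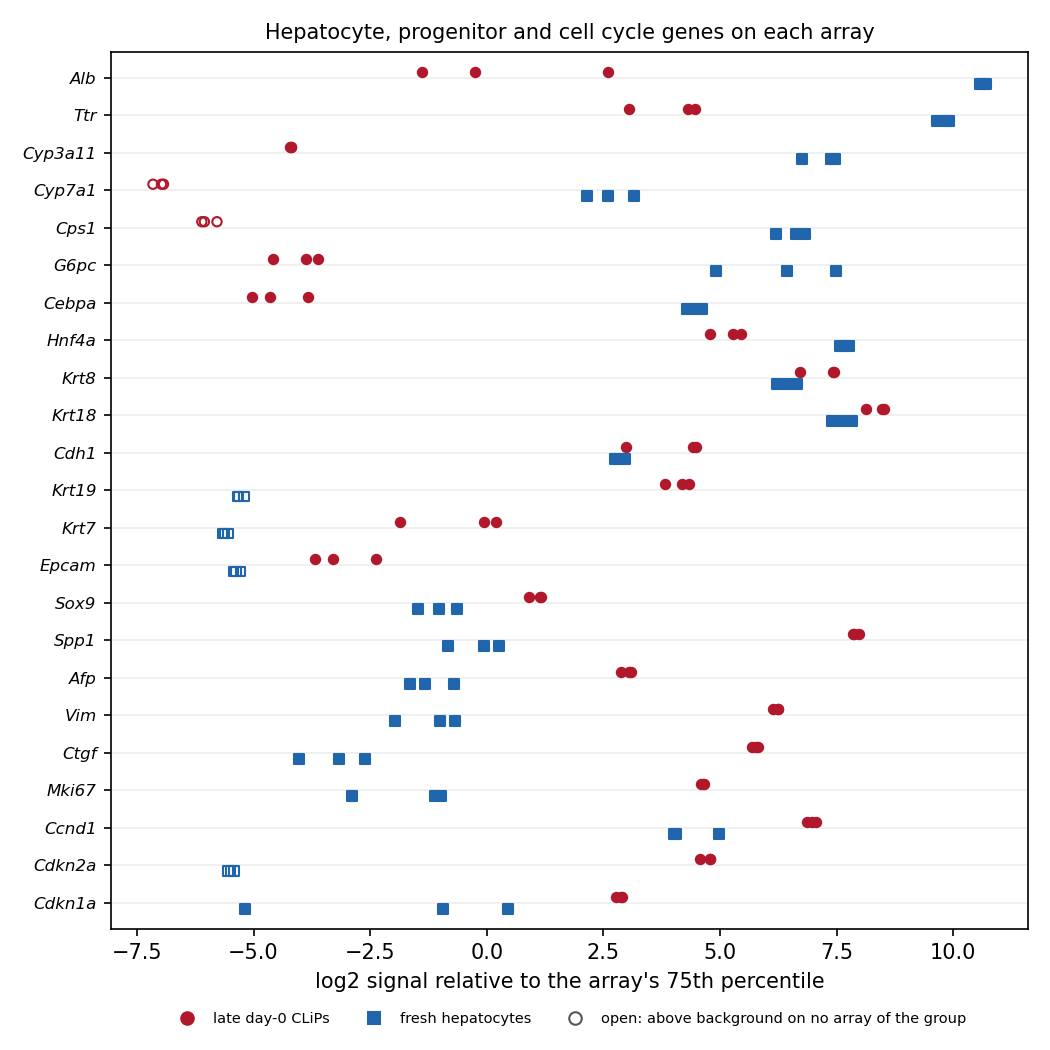
Log2 signal of 23 genes on each array, relative to the array's 75th percentile, for late day-0 CLiPs (circles, upper row of each gene) and fresh hepatocytes (squares, lower row), 1 symbol per array. Open symbols stand for genes that were well above background on no array of the group, and the late Alb levels spread from -1.39 to 2.60 while the fresh ones lie between 10.58 and 10.70.

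The groups of genes for hepatocyte function fell almost without exception. All 22 plasma protein genes tested fell (median difference -9.48), as did 33 of 34 genes of fibrinogen, complement and coagulation (median -9.99, or -9.65 with dim genes at their bound). All 39 genes of cytochrome P450 and other phase I drug metabolism fell (median -12.66, bounded -11.00), all 41 genes of ureagenesis and amino acid breakdown (median -9.98, bounded -9.91) and all 9 major urinary protein genes (median -15.10, bounded -14.14). Of 34 phase II conjugation enzyme genes, 32 fell (median -6.08). The same held for 23 of 24 genes of bile acid synthesis and transport (median -8.00, bounded -7.16), 20 of 21 of gluconeogenesis and glycogen (median -6.27) and 32 of 33 of fatty acid oxidation and the peroxisome (median -3.41). No member of these groups rose. Of 21 acute-phase protein genes, 19 fell and 1 rose (median -9.36, bounded -7.47).

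Of the genes measured above background on each of the 6 arrays, the lowest in late CLiPs was Serpinc1, which codes for antithrombin. Its levels were -4.58, -4.43 and -4.55 on late arrays and 9.87, 9.83 and 9.88 on fresh arrays, a difference of -14.38 (SE 0.10), although its second measured probe differed by only -2.40. The late levels of Serpinc1 lay close to the lowest signal well above background on these arrays (-4.94 to -4.70), so the size of its fall rests on signals near background. Apoc1, an apolipoprotein gene, had -4.24, -3.77 and -2.57 on late arrays and 10.59, 10.69 and 10.59 on fresh arrays. Slc27a5 of bile acid conjugation (-13.31), Cyp2d10 (-12.80), Apoh (-12.17) and Gnmt (-11.87) were also among the 10 lowest. The genes with the largest minimum fall were dim in late CLiPs. They were Mup21, Mup1 and Mup19 of the major urinary proteins (at least 38640-fold, 34570-fold and 33830-fold lower), Fabp1, the liver fatty acid binding protein gene (at least 28980-fold), Fbp1 of gluconeogenesis (at least 24930-fold) and Apoc3 (at least 26240-fold). Major urinary protein genes are near-identical copies, and their probes may not separate them.

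Genes of single metabolic steps fell as well. Cyp3a11, the main drug-metabolizing P450 gene of its family in mouse liver, had -4.20, -4.22 and -4.19 on late arrays and 6.76, 7.38 and 7.46 on fresh arrays (-11.41 ± 0.20, adjusted p = 1.1e-07). The late arrays lay close together and far below the fresh ones. Cyp7a1, the rate-limiting enzyme gene of bile acid synthesis, was dim in late CLiPs and at least 171-fold lower. Cps1, which starts the urea cycle, was dim and at least 2582-fold lower. G6pc, the last step of glucose release, had -3.87, -4.58 and -3.62 on late arrays and 4.92, 7.49 and 6.44 on fresh arrays (-10.30 ± 0.65), a gap wider than the spread of the fresh arrays. Arg1 of the urea cycle (at least 6288-fold lower) and Cyp2e1 of alcohol and drug oxidation (at least 19250-fold) were dim in late CLiPs as well.

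The exception among the transporters was Slc10a1, the bile acid uptake carrier gene, for which the probes disagreed: the brightest gave 8.37, 8.50 and 8.58 on late arrays and 9.20, 9.21 and 9.09 on fresh arrays, a difference of -0.68 that stayed under 2-fold, and the other differed by -14.42. The brightest probe's difference turned to 0.77 after quantile normalization and 2.08 after scaling to the spike-ins, and the mean of both probes fell (-7.55). Abcb11, the bile salt export pump gene, was at least 6482-fold lower and Slco1b2, an organic anion uptake carrier gene, at least 5287-fold. Mitochondrial genes moved far less than the liver-specific ones. Of 42 respiratory chain subunit genes, 37 fell, and the median over all 42 was only -1.49. After quantile normalization 13 fell (median -0.85), and after scaling to the spike-ins the median was 1.27. Of 33 lipogenesis and lipid droplet genes, 29 fell and 1 rose (median -2.49, which turned to 0.27 after scaling to the spike-ins). Of 24 cholesterol synthesis genes, 8 fell and 1 rose (median -0.63). The one that fell most was Insig1 (-3.69), a brake on cholesterol synthesis.

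Among the core genes, the promoters of Alb, G6pc and Cyp3a11, which fell, and of Afp, a fetal liver gene that rose, held the sequence GTTAATNAT (an HNF1 site core) or CAAAGTCCA (an HNF4 site core), searched on both strands in windows of 300 bases around the start site. The windows below are from RefSeq (GRCm38.p6), are those of the core genes whose window held the motif chosen for them, and carry the match in capitals. The Alb window is chr5:90460620-90460919 on the plus strand, with a HNF1 match at position -32 relative to the start site. The Afp window is chr5:90490464-90490763 on the plus strand (HNF1 match at -105), the G6pc window chr11:101367466-101367765 on the plus strand (HNF1 match at -221) and the Cyp3a11 window chr5:145879805-145880104 on the minus strand (HNF4 match at -109).
Alb: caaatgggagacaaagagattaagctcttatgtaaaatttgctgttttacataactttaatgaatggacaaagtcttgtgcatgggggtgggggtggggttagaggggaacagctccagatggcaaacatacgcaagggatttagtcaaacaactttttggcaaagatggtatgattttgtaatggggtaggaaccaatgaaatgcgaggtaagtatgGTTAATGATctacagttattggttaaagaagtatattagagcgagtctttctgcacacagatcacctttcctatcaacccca
Afp: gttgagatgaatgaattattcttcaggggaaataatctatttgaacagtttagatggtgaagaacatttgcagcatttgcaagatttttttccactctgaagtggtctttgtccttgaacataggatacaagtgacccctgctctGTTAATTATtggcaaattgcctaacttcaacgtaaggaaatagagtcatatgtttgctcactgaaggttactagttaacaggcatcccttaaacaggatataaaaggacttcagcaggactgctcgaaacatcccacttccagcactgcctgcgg
G6pc: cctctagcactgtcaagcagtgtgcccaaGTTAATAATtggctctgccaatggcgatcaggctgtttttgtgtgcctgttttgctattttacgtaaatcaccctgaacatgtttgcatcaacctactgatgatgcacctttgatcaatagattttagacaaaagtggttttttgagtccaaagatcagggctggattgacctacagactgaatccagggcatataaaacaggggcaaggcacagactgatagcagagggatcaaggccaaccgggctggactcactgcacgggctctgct
Cyp3a11: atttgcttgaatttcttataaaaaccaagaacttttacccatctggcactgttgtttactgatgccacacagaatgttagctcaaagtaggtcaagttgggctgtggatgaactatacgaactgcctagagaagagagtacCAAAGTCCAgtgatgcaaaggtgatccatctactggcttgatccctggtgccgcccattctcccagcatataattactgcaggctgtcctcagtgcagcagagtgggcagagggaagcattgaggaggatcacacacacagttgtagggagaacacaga

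The HNF1 sequence was present in the windows of 4 of 27 fallen coagulation genes with a promoter in the reference (14.8%), 2 of 18 fallen plasma protein genes (11.1%) and 2 of 15 fallen gluconeogenesis genes (13.3%), against 0.78% of all genes tested and 0.94% of all 27025 promoters of the same length. The HNF4 sequence was present in 3 of 32 fallen phase I enzyme genes (9.38%), against 0.63% of all genes tested and 0.56% of all promoters. A match of letters is a description and does not show that a factor binds there.

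Transcription factors of the liver fell unevenly. Of 36 tested, 26 fell and 3 rose (median -2.23, which turned to 0.54 after scaling to the spike-ins). Hnf4a, the central hepatocyte regulator gene, had 4.78, 5.45 and 5.28 on late arrays and 7.76, 7.57 and 7.65 on fresh arrays (-2.49 ± 0.19, adjusted p = 4.8e-05). Its groups did not overlap, and its difference turned positive after scaling to the spike-ins (0.28). Cebpa, which holds hepatocytes in their mature state, fell to -4.65, -5.03 and -3.84 on late arrays, against 4.62, 4.49 and 4.29 on fresh arrays (-8.97 ± 0.31). It was well above background on only 1 late array, so the size of its fall rests partly on signals near background. The nuclear receptor genes Nr5a2 (at least 441-fold) and Esr1 (at least 219-fold) were dim in late CLiPs. Creb3l3, a factor of hepatic lipid and acute-phase genes, fell by 10.99, with 2 late arrays well above background.

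Other liver factors stayed within 2-fold. Foxa2, a pioneer factor gene of liver development, had 4.0, 4.27 and 4.40 on late arrays and 4.06, 4.16 and 4.13 on fresh arrays, which overlap (0.11 ± 0.13, adjusted p = 0.49). Hhex had 4.36, 4.58 and 4.59 against 4.83, 4.22 and 3.86 on fresh arrays (0.21 ± 0.26). After scaling to the spike-ins, these differences became 2.87 and 2.97. The 3 factors that rose included Cebpd (2.39) and Gata6 (1.48). Of 20 pericentral genes of the liver lobule, 15 fell and 2 rose (median -3.95), and of 19 periportal genes, 17 fell and 2 rose (median -10.30). Among 15 genes of glycolytic isozymes used outside adult liver, 7 rose and 3 fell (median 1.52, or 0.61 without fresh replicate 3). Pkm, the pyruvate kinase gene of proliferating and muscle cells, rose to 6.96, 6.77 and 6.68 on late arrays, against 0.29, 0.38 and 0.53 on fresh arrays (6.40 ± 0.13).

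**Figure D2:**
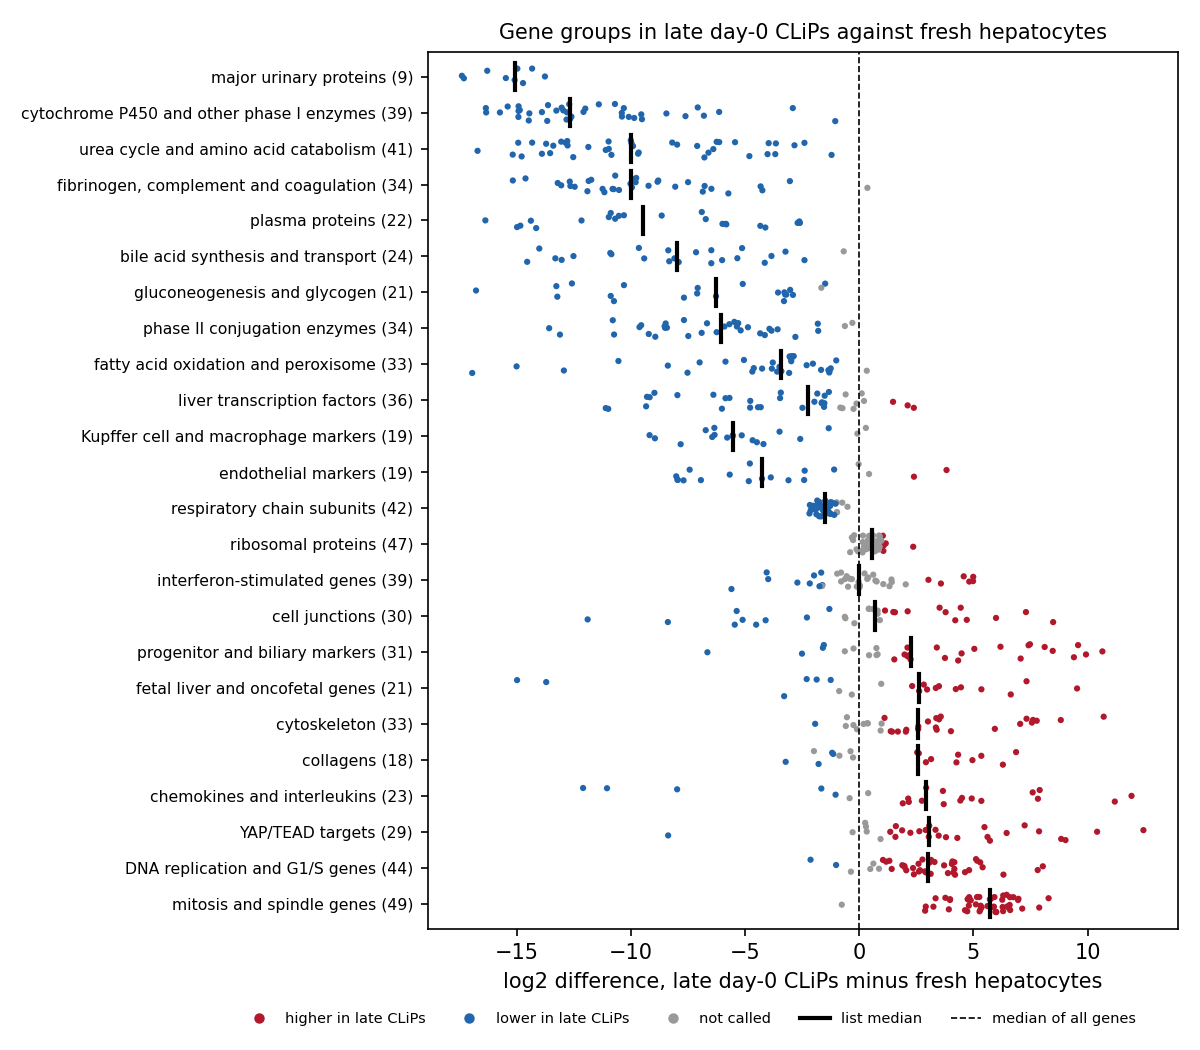
Log2 difference, late day-0 CLiPs minus fresh hepatocytes, for every tested member (points) of 24 gene groups, with the list median (bar) and the median of all genes (dashed line); the number tested is in brackets. The groups of hepatocyte function lie far to the left and those of mitosis, DNA replication and YAP/TEAD targets to the right, and the medians of liver transcription factors, respiratory chain subunits and interferon-stimulated genes turn positive after scaling to the spike-ins (0.54, 1.27 and 2.73).

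Genes of bile duct and progenitor cells rose as a group, though not all of them. Of 31 tested, 21 rose and 4 fell (median 2.25, bounded 2.11). Spp1, a secreted protein gene of bile duct cells, had 7.86, 7.88 and 7.99 on late arrays and 0.26, -0.83 and -0.07 on fresh arrays (8.12 ± 0.28, adjusted p = 1.7e-06). Bicc1, an RNA-binding protein gene of duct development, had 7.11, 7.20 and 7.25 on late arrays and -2.49, -2.65 and -2.06 on fresh arrays (9.58 ± 0.17). For both genes the late arrays lay close together and far above the fresh ones. Krt19, a keratin gene of bile ducts and dim in fresh hepatocytes, was at least 169-fold higher in late CLiPs, and Cd24a, a surface protein gene of progenitors, at least 438-fold. Tspan8 was at least 376-fold higher. Cd44, a hyaluronan receptor gene, rose by 8.47, with only 1 fresh array well above background. Sox9, a transcription factor gene of ducts and progenitors, had 1.14, 1.15 and 0.90 on late arrays and -1.03, -1.47 and -0.65 on fresh arrays (2.11 ± 0.22, adjusted p = 2.0e-04).

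Several epithelial markers showed only a small or unstable difference. Krt7, also dim in fresh cells, was at least 6.57-fold higher in late CLiPs, with late levels of 0.20, -0.06 and -1.86. Epcam was dim in fresh hepatocytes, and its late levels of -2.38, -3.29 and -3.68 gave a minimum of only 1.13-fold, with a difference of -0.03 under normexp background correction. Krt8 and Krt18, the keratin pair of all simple epithelia, were already high in fresh hepatocytes and stayed under 2-fold (0.76 ± 0.24 and 0.75 ± 0.17, with no overlap of the groups), but passed it after quantile normalization (1.49 and 1.92). Cdh1, the E-cadherin gene, had 2.99, 4.42 and 4.49 on late arrays and 2.96, 2.76 and 2.81 on fresh arrays (1.13 ± 0.41, adjusted p = 0.041). Its replicate 1 on the late side lay at the level of the fresh arrays, and the call was lost when any array other than that one was left out, with differences of 0.86 to 1.19. Aqp1, a water channel gene of cholangiocytes and endothelium, fell by 6.65, with only 1 late array well above background. Of 11 keratin genes, 3 rose and 5 fell (median -0.81, positive after scaling to the spike-ins).

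Of 21 fetal liver and oncofetal genes, 12 rose and 6 fell (median 2.62, bounded 1.61). Afp, the fetal counterpart of albumin, had 3.04, 2.88 and 3.09 on late arrays and -1.64, -0.71 and -1.32 on fresh arrays (4.23 ± 0.24, adjusted p = 1.5e-05). Its late arrays lay close together, and its P1 levels were higher still, at 8.20, 8.14 and 8.46 (late over P1 -5.26, adjusted p = 1.1e-05). Hmga2, a chromatin protein gene of embryonic growth, rose by 7.33, Peg3 by 6.63 and Igf2bp2 by 5.35. Each of them was well above background on only 1 fresh array. Bex1, dim in fresh cells, was at least 180-fold higher. Ahsg, the fetuin gene, which is also a plasma protein gene of adult liver, fell by 14.99, with only 1 late array well above background. Igf2 and H19, the imprinted pair of fetal liver, were not tested, because Igf2 was well above background on 1 late array and no fresh array and H19 on 2 late arrays and 1 fresh array.

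Cell cycle genes rose almost without exception. Of 49 genes of mitosis and the spindle, 48 rose and none fell (median 5.72, bounded 4.85), and of 44 genes of DNA replication and the G1/S step, 38 rose and 2 fell (median 2.99). No member of either list differed by more than 2-fold among the late arrays. Mki67, the gene of the proliferation marker Ki-67, had 4.58, 4.62 and 4.66 on late arrays and -2.88, -0.98 and -1.10 on fresh arrays (6.28 ± 0.51, adjusted p = 5.8e-05). The late arrays lay close together, and the fresh ones spread more widely without overlapping them. Top2a, which untangles replicated DNA, rose by 6.97, and Anln, a cytokinesis gene, by 7.14. Foxm1, a transcription factor gene of mitotic entry, was at least 105-fold higher, and Uhrf1, which maintains DNA methylation, at least 143-fold. Among G1 cyclins, Ccnd2 had 7.61, 7.84 and 7.71 on late arrays and 0.23, -0.73 and -0.47 on fresh arrays (8.04 ± 0.26), while Ccnd1, already expressed in fresh hepatocytes, rose by 2.61 (SE 0.28).

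The 2 replication genes that fell included Mcm10 (-2.13), whose second probe differed by 2.39 in the other direction. The 1 mitosis gene that stayed under 2-fold was Pttg1 (-0.77), whose other probe differed by 1.11. Against P1 CLiPs, 927 of 20678 genes were higher (4.48%) and 1603 lower (7.75%) in late CLiPs, but none of the 49 mitosis genes and 1 of the 44 replication genes was called. Mki67 had 4.48, 4.36 and 4.34 in P1 CLiPs (late over P1 0.23, adjusted p = 0.050), a level just below the late arrays.

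Inhibitors of the cell cycle rose beside the cycle genes. Of 30 p53 targets and CDK inhibitor genes, 18 rose and 6 fell (median 1.82). Cdkn2a, whose products p16 and p19ARF restrain the cell cycle in cultured cells, had 4.79, 4.78 and 4.57 on late arrays, was dim in fresh hepatocytes and was at least 257-fold higher. Its neighbour Cdkn2b was at least 151-fold higher. P1 CLiPs already had Cdkn2a levels of 4.34, 4.57 and 4.79, which overlap with the late ones (late over P1 0.15, adjusted p = 0.41). Cdkn1a, the p21 gene, had 2.87, 2.77 and 2.90 on late arrays and -5.19, -0.95 and 0.45 on fresh arrays (4.74 ± 1.37, adjusted p = 0.018). The late arrays lay together and the fresh ones spread widely, and without late replicate 3 the adjusted p was 0.052. Phlda3 rose by 7.57, while Cdkn1c (-3.29), Perp (-3.25) and Fas (-2.88, with probes of opposite sign) fell.

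The windows of Mki67 and Uhrf1 are shown because they hold the sequences TTTGAA (the CHR element of late cell cycle genes) and TTTCGCGC (an E2F site form). The Mki67 window is chr7:135716330-135716629 on the minus strand, with 2 CHR matches in capitals, the first at position -116. The Uhrf1 window is chr17:56304063-56304362 on the plus strand, with an E2F match at -185, and was chosen after its values were seen.
Mki67: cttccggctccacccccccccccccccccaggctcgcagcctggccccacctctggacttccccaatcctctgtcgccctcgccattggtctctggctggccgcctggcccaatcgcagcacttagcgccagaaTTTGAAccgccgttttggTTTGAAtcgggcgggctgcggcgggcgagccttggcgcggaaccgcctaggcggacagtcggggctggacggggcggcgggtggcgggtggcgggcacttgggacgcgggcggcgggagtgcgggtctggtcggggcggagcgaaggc
Uhrf1: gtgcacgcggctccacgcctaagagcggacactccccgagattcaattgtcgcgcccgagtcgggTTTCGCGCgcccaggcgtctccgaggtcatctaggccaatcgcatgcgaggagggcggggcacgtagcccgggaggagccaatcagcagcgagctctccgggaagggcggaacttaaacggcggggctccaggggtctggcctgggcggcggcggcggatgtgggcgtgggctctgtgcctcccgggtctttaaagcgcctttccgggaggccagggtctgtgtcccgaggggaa

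TTTGAA was present in 28 of 40 windows of risen mitosis genes (70.0%), against 15.4% of all genes tested and 20.2% of all promoters. CCAAT, the NF-Y box, was present in 29 of these 40 (72.5%), against 42.6% and 41.1%. An E2F form (TTTGGCGC, TTTCGCGC or TTTCCCGC) was present in 16 of 32 windows of risen replication genes (50%), against 3.56% and 2.12%. All were searched on both strands.

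**Figure D3:**
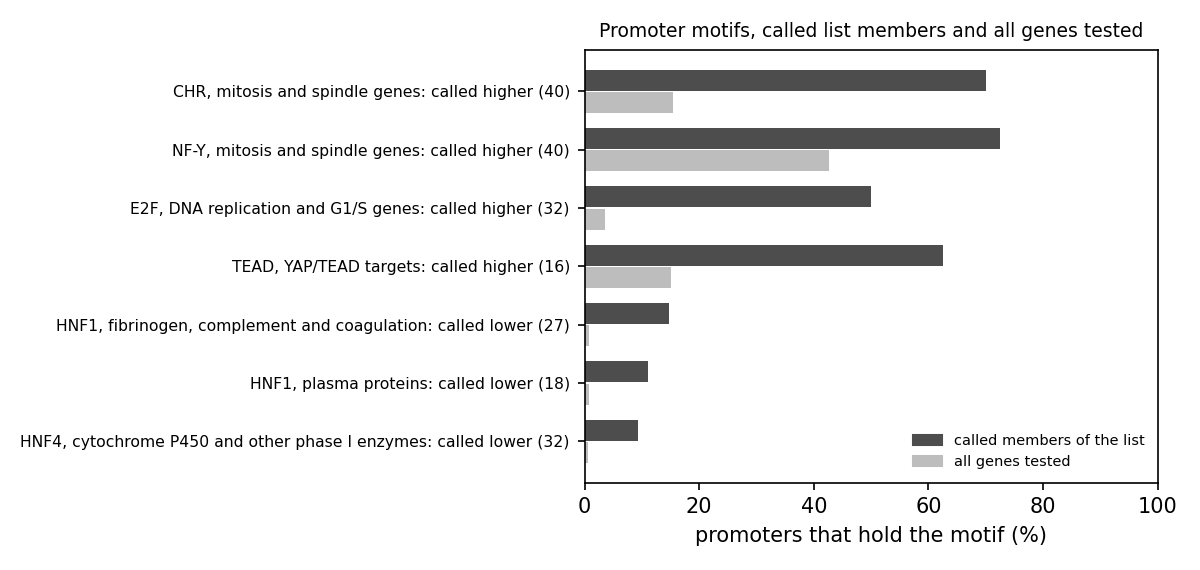
Share of promoter windows (%) that hold each motif, for called members of a list (dark bars, upper) and for all genes tested (light bars, lower); the number of genes with a window is in brackets. The CHR motif is in 70.0% of risen mitosis genes and 15.4% of all genes tested, and the TEAD motif in 62.5% of risen YAP/TEAD targets and 15.0% of all genes tested.

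Targets of YAP and TEAD, the transcription factors of cell spreading and organ growth, mostly rose (23 of 29 higher, 1 lower, median 3.06). Ctgf, a secreted matricellular protein gene and a standard YAP target, had 5.69, 5.81 and 5.78 on late arrays and -3.17, -4.03 and -2.61 on fresh arrays (9.03 ± 0.35, adjusted p = 2.6e-06). Ankrd1 had 6.93, 7.07 and 6.67 on late arrays and was dim on all 3 fresh arrays, and its minimum rise of 1158-fold was the largest of any called gene. Myof was at least 428-fold higher, and Axl, a receptor kinase gene, rose by 7.24. The gene that fell was Nt5e (at least 244-fold lower), and Yap1 itself stayed under 2-fold (0.33 ± 0.10). In P1 CLiPs, Ctgf had 6.24, 6.13 and 5.90 and Ankrd1 6.42, 6.54 and 6.45, close to the late arrays. The Ankrd1 window, chr19:36119795-36120094 on the minus strand, was chosen after its values were seen and holds GGAATG, the core of a TEAD site, 2 times (first match at -210, capitals).
Ankrd1: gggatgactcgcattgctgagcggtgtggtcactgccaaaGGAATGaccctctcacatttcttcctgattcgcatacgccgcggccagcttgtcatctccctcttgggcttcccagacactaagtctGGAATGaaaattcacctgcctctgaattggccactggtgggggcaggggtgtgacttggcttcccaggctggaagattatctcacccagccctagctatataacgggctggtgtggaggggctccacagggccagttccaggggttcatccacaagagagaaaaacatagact

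GGAATG was present in 10 of 16 windows of risen YAP/TEAD targets (62.5%), against 15.0% of all genes tested and 16.6% of all promoters, on both strands.

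Other signalling genes divided into risers and fallers. Of 35 TGF-beta and BMP genes, 12 rose and 7 fell (median 0.44). The ligand genes Tgfb3 and Tgfb2, both dim in fresh cells, were at least 290-fold and 96.7-fold higher, while Inhbc, an activin subunit gene of hepatocytes, fell by 7.27. Of 29 Wnt ligand and feedback genes, 12 rose and 11 fell (median 0.49, but -0.64 under normexp). Wnt7b, a ligand gene, had 5.01, 4.97 and 4.84 on late arrays and -3.28, -3.85 and -3.32 on fresh arrays (8.42 ± 0.18), with no overlap. Wnt10a was at least 40.1-fold higher, with late replicate 3 at 3.18 above the other late arrays (1.49 and 1.44). Of 14 Notch genes, 5 rose and 5 fell. The ligand gene Jag1 rose by 4.58, and the receptor gene Notch1 fell by 4.33, although its second measured probe differed by 0.74. Of 39 growth factor and receptor genes, 13 rose and 18 fell (median -0.44, positive after scaling to the spike-ins). Igf1, the liver's main endocrine growth factor gene, fell by 9.59, and Igfbp2 by 10.35, while the receptor gene Igf1r rose by 5.32 and Pdgfb by 5.62.

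Genes of the cytoskeleton and of calcium-binding proteins mostly rose. Of 33 cytoskeleton genes, 23 rose and 1 fell (median 2.58). Vim, the intermediate filament gene of mesenchymal and cultured cells, had 6.14, 6.24 and 6.25 on late arrays and -0.67, -1.98 and -1.0 on fresh arrays (7.42 ± 0.33, adjusted p = 4.8e-06). Of 24 mesenchymal genes and their regulators, 14 rose and 6 fell (median 1.65, bounded 1.12). Tubb2b was at least 334-fold higher, and Tuba1a rose by 7.77. Of 19 annexin and S100 genes, 10 rose and 4 fell (median 1.81, bounded 1.66). S100a6, a calcium-binding protein gene, had 8.23, 8.52 and 8.32 on late arrays and -3.24, -3.41 and -2.94 on fresh arrays (11.55 ± 0.16). Anxa3 rose by 9.36 and Anxa2 by 7.67, both among the 10 highest genes measured on all 6 arrays, beside Akap12 (7.94), Ngfrap1 (7.76) and the desaturase gene Scd2 (7.68).

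Of 18 collagen genes, 10 rose and 4 fell (median 2.57, bounded 1.43). The list had 26 genes on the array, and 4 of those tested were dim in fresh hepatocytes and passed the filter only through the late arrays. With no filter on dim probes the collagen median was -0.63. The basement membrane collagen gene Col4a1 had 5.12, 5.09 and 5.15 on late arrays and -1.65, -1.93 and -1.66 on fresh arrays (6.87 ± 0.12), and Col4a2 rose by 6.29. Col1a2, a fibrillar collagen gene, fell by 3.22. Of 21 integrins and laminins, 11 rose and 5 fell (median 1.72, bounded 1.26), with Lama5 higher by 6.20 and Itga3 by 5.69. Of 19 matrix protease and inhibitor genes, 9 rose and 5 fell (median 1.17, or 0.54 without fresh replicate 2 and 2.41 without fresh replicate 3). With no filter on dim probes this median was -0.021. Plaur, the urokinase receptor gene, was at least 322-fold higher, and Mmp19 fell by 9.16. Of 30 cell junction genes, 12 rose and 9 fell (median 0.70). The liver gap junction genes Gjb1 and Gjb2 fell (-8.38 and -11.90).

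Among 23 chemokine and interleukin genes, 16 rose and 5 fell (median 2.93, bounded 2.14). Ccl2, a monocyte attractant gene, had 7.98, 8.45 and 7.85 on late arrays and -2.54, -3.60 and -3.16 on fresh arrays (11.19 ± 0.30, adjusted p = 6.5e-07). Cxcl5, a neutrophil attractant gene that was dim in fresh cells, was at least 984-fold higher. Cxcl12 fell by 12.10, with only 1 late array well above background, and Ccl9 was dim in late CLiPs and at least 864-fold lower. Il11, a cytokine gene of the IL-6 family, had 4.71, 4.30 and 4.04 on late arrays, -3.49, -2.97 and -3.77 in P1 CLiPs and -3.23, -2.96 and -4.23 on fresh arrays. Its signal was well above background on only 1 fresh array. The late arrays stood alone, with a rise of 7.83 over fresh and of 7.76 over P1 (adjusted p = 3.6e-05).

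Amino acid and stress genes showed no common direction. Of 34 genes of the unfolded protein response and ATF4, 7 rose and 9 fell (median -0.57, which turned to 2.19 after scaling to the spike-ins). Those that rose included genes of serine and asparagine synthesis, namely Phgdh (dim in fresh hepatocytes, at least 915-fold higher), Psat1 (9.35) and Asns (6.61). Of 26 NRF2 targets, 7 rose and 5 fell (median 0.08), with Abcc4 higher by 5.87 and Nqo1 at least 32.1-fold lower. Of 32 immediate early and heat shock genes, 9 rose and 10 fell (median 0.21). Fosl1 was at least 48.0-fold higher and Fos fell by 5.94, with fresh levels of 5.34, 3.88 and 4.21. Of 47 ribosomal protein genes, 5 rose and none fell (median 0.57), but 44 rose after quantile normalization. Of 22 common reference genes, 5 rose and 4 fell (median 0.03), from 1.66 for Ywhaz to -1.44 for Sdha. Actb, which is not in that list, had 8.45, 8.56 and 8.61 on late arrays and 8.28, 8.58 and 8.19 on fresh arrays. Its groups overlap (difference 0.19, or 1.53 after quantile normalization).

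Markers of the other cells of liver moved with the group. Of 19 Kupffer cell and macrophage markers tested, 17 fell and none rose (median -5.54, bounded -3.60), and of 19 endothelial markers, 15 fell and 2 rose (median -4.26, bounded -3.10). Their summed signal, in multiples of the array's 75th percentile, was 10.4 to 11.4 on late arrays and 27.6 to 67.7 on fresh arrays for macrophages, and 17.4 to 33.5 on late arrays and 30.2 to 47.7 on fresh arrays for endothelium. Cd5l of Kupffer cells had 3.39, 1.05 and 2.18 on fresh arrays and was dim on late arrays (at least 128-fold lower). Clec4f, also of Kupffer cells, had -3.46, -7.13 and -7.02 on late arrays and 1.29, -0.47 and 0.60 on fresh arrays, and Kdr of endothelium was dim on late arrays (at least 59.8-fold lower). Fresh replicate 1 had the highest level of Cd5l, Clec4f and Kdr. The part of these cells in the differences of other genes was not tested. Flt1, listed as endothelial, went the other way, with 4.57, 3.21 and 3.92 on late arrays and 0.47, -0.22 and -0.01 on fresh arrays (3.82 ± 0.37). At these log2 levels Flt1 makes up a large part of the endothelial sum on late arrays. That sum is therefore no measure of how far the other endothelial markers fell.

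Of 9 stellate cell and fibroblast markers, 3 rose and 6 fell (median -1.43, positive after scaling to the spike-ins). Their summed signal ran against that median, at 55.7 to 69.2 on late arrays and 15.6 to 26.4 on fresh arrays. The 3 that rose were Acta2, a smooth muscle actin gene (2.17, but -0.43 with the mean of its probes), Ecm1 (1.64) and Fbln2, which was dim in fresh cells and at least 112-fold higher. Dcn, decorin of fibroblasts, was dim in late CLiPs and at least 141-fold lower, with fresh levels of 3.14, 1.61 and 2.29. Of the defining stellate and fibroblast markers, only Reln, Des and Dcn of 7 (Des named after its value was seen) passed the filter on dim probes, and all 3 fell, although Reln lost its call on leaving out any of 4 arrays. The mesothelial gene Msln, dim in fresh cells, was at least 365-fold higher, with late levels of 5.77, 5.82 and 4.08, while Wt1 of the same cells was dim in fresh hepatocytes, low in late CLiPs (-4.44, -4.18 and -4.20), so that no minimum fold is given. Its difference was called lower under normexp background correction. The summed signal of the 4 mesothelial genes tested was 38.1 to 73.5 on late arrays and 0.13 to 0.18 on fresh arrays. All 4 were dim in fresh hepatocytes and passed the filter only through the late arrays, so the filter leans this sum to the late side. The list had 9 genes on the array, and with no filter on dim probes its median was -0.58. Of 14 cholangiocyte surface and cilia genes, 5 rose and 5 fell (median -0.67, positive after scaling to the spike-ins). Of 7 lymphocyte and neutrophil markers 6 fell and of 6 erythroid genes 4 fell, and none rose (medians -2.20 and -1.63, both positive after scaling to the spike-ins). Ptprc of white blood cells differed by -0.08 (its other probe by -1.54, and the mean of its probes fell by 1.61), and Alas2 of red cell precursors was at least 87.9-fold lower.

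The late arrays were nearly alike for the cell cycle but not for several other groups. More than 2-fold differences among them were found in 5 of 10 acute-phase, 7 of 17 collagen, 7 of 20 chemokine and interleukin and 9 of 26 phase II genes that were well above background on all 3. Of 17 plasma protein genes well above background on all late arrays, 10 differed by more than 2-fold among these arrays, and replicate 1 was the lowest in 14. Of 17 coagulation and complement genes, 12 differed so, and replicate 1 was the lowest in 15. Mbl2 and Hpx below were chosen after their values were seen. Fgg, a fibrinogen chain gene, had -4.57, -4.32 and 0.68 on late arrays and 9.93, 9.97 and 9.93 on fresh arrays (-12.68 ± 1.38, adjusted p = 2.3e-04), and without replicate 3 its difference was -14.39. Mbl2, a mannose-binding lectin gene, had -2.81, -2.66 and 3.70 on late arrays, 3.26, 3.02 and 3.99 on P1 arrays and 9.10, 9.24 and 9.19 on fresh arrays. Hpx, the hemopexin gene, had 0.82, 4.12 and 3.79 on late arrays and 9.63, 9.58 and 9.68 on fresh arrays. Late replicate 3, the passage 11 sample, was thus the highest for Fgg, Mbl2 and Alb, and replicates 2 and 3 together for Hpx, but every late array lay below every fresh array for these genes. Whether passage number has a part in this was not tested, since 1 array holds passage 11.

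Interferon-stimulated genes set late replicate 1 apart. Of 39 genes of this list, 38 were highest in late replicate 1 and 35 differed by more than 2-fold among the late arrays, with list median levels of 3.58, 1.64 and 1.91 on replicates 1, 2 and 3. Against fresh hepatocytes, 6 rose and 9 fell (median -0.03, or 0.33 after quantile normalization, 0.01 under normexp and 2.73 after scaling to the spike-ins), and without late replicate 1 the counts were 6 and 15 (median -0.55). Oasl2, a 2'-5' oligoadenylate synthetase-like gene of antiviral defence, had 4.58, 2.27 and 3.22 on late arrays and -0.88, -2.23 and -1.79 on fresh arrays (4.99 ± 0.64, adjusted p = 4.7e-04), with no overlap. Oas2 had 3.71, -1.09 and 0.71 on late arrays and -2.20, -5.60 and -3.33 on fresh arrays (4.82 ± 1.39, adjusted p = 0.018), and its call was lost without fresh replicate 2 (adjusted p = 0.056) and with the mean of its probes (2.07, adjusted p = 0.11). Iigp1, an interferon-gamma induced GTPase gene, fell by 3.99, and H2-Q1 by 5.60. Isg15, which like Irf7 and Plk1 in the plot of 9 arrays was chosen after its values were seen, had 6.67, 4.15 and 4.98 on late arrays, 0.68, 0.98 and 0.00 on P1 arrays and 3.02, 4.25 and 4.27 on fresh arrays.

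Against P1 CLiPs the same list stood higher. Of 39 interferon-stimulated genes, 30 were higher and 1 lower in late CLiPs (median 2.52), and without late replicate 1 the counts were 28 and 0 (median 2.04). Oasl2 was higher in late than in P1 CLiPs by 5.29 (adjusted p = 1.4e-03), and Ifi204, an interferon-inducible DNA sensor gene, by 5.50 (adjusted p = 1.7e-03). Both comparisons use the same late arrays, so they are not independent.

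**Figure D4:**
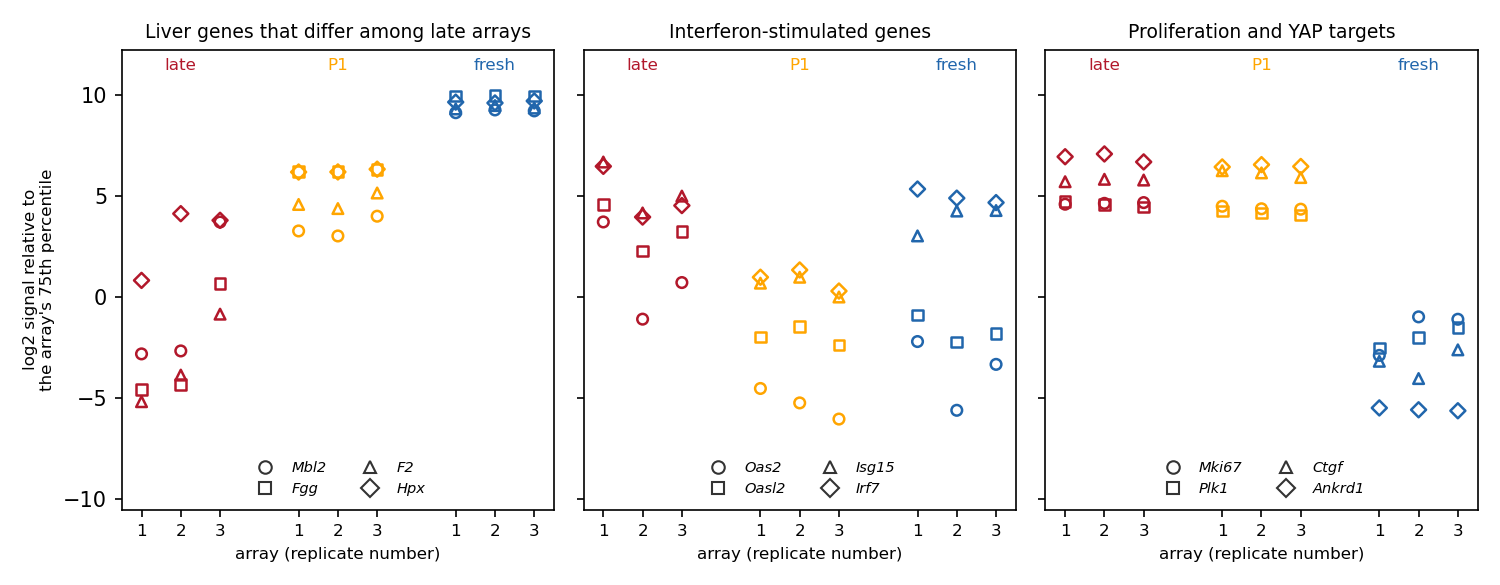
Log2 signal relative to the array's 75th percentile for 12 genes on the late, P1 and fresh arrays (red, orange and blue), 1 symbol per array and gene, with replicate numbers on the horizontal axis. Late replicate 1 is the highest late array for Oas2, Oasl2, Isg15 and Irf7, late replicate 3 is the highest for Fgg, Mbl2 and F2, and Mki67, Plk1, Ctgf and Ankrd1 vary little among the CLiP arrays.

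Late CLiPs lay below P1 CLiPs for secreted liver proteins and in part for other liver genes, but not for every group of liver function. Of 22 plasma protein genes, 19 were lower in late than in P1 CLiPs and none was higher (median -3.10), and the same held for 21 of 26 coagulation and complement genes (median -3.92). Of 19 phase I genes, 12 were lower and none higher (median -2.27). Of 27 phase II genes, 14 were lower and 3 higher (median -1.08). Lower were also 13 of 29 ureagenesis and amino acid breakdown genes (none higher) and 7 of 17 gluconeogenesis genes (2 higher). Of 34 liver transcription factors, 12 were lower and 2 higher, against 7.75% lower and 4.48% higher of all genes. In contrast, none of 42 respiratory chain and none of 24 cholesterol synthesis genes was called between late and P1 CLiPs, and of 32 fatty acid oxidation genes 2 were higher and 3 lower (median -0.06). Progenitor and biliary markers were lower in 16 of 34 cases and higher in 1 (median -0.78), and fetal liver genes lower in 14 of 25 and higher in 2 (median -1.64). Epcam had 1.82, 1.99 and 1.53 in P1 CLiPs (late over P1 -4.90, adjusted p = 3.2e-04) and Krt7 3.62, 3.59 and 3.15 (-4.02, adjusted p = 2.7e-03), both above all late arrays. Junction genes were lower in 14 of 31 cases and higher in 3, and matrix protease genes lower in 12 of 21 and higher in 1. Of the genes measured above background in every late and P1 sample that also changed against fresh, the lowest in late over P1 CLiPs included Apoc1 (-9.88), Fgg (-8.97), Igfbp1 (-8.16), Apom (-8.12) and Hp (-7.87), which code for secreted liver proteins.

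By the same rule, the genes highest in late over P1 CLiPs were the interferon genes above, the receptor gene Flt1 (6.01), Inpp5j (4.85), Cdh16 (4.68) and Apol9b (4.61). Inpp5j, a phosphoinositide phosphatase gene, had 3.03, 3.41 and 2.92 on late arrays, -1.75, -1.65 and -1.79 on P1 arrays and was dim on fresh arrays. Cdh16, a cadherin gene of kidney epithelium, had 0.85, 5.12 and 1.15 on late arrays, so late replicate 2 carried most of it, and its probes disagreed in direction. Apol9b, an apolipoprotein L gene, had 5.43, 1.94 and 2.78 on late arrays, with late replicate 1 the highest as for most interferon-stimulated genes. It had 7.44, 7.49 and 7.46 on fresh arrays and fell against fresh (-4.08). Of 18665 genes tested in all 3 groups, 8214 were called in the same direction against fresh hepatocytes in late and in P1 CLiPs and 48 in opposite directions. These comparisons share the fresh arrays.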

How the data were processed

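Gene expression was measured on 1-colour Agilent arrays of 3 late day-0 CLiP, 3 P1 day-0 CLiP and 3 fresh hepatocyte samples. Per the file headers, the authors' scanner output was made with Agilent Feature Extraction 10.7.3.1 (late) or 11.5.1.1 (fresh and P1), which gives each spot's processed signal as an intensity corrected for background. The authors' deposited table holds log2 values centred on each probe's median, and 100% of its values lay within 0.01 of those computed here. Column medians in that table were -0.032 to -0.006 for late and 0.047 to 0.113 for fresh arrays.

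From the intensity, log2 values minus each array's 75th percentile were computed. Control spots were left out, repeat spots averaged, and the brightest of a gene's probes represented it, among 56605 probes and 37074 gene names as the array files give them. Testing required a probe well above background throughout at least 1 group. limma 3.58.1 (R 4.3.3) was fitted to the 6 arrays of a comparison, with Benjamini-Hochberg adjustment over all genes tested, and calls needed both an adjusted p under 0.05 and a 2-fold difference. A minimum fold sets the bright group's mean against, on each array of the dim group, the higher of the lowest signal among probes well above background and the probe's own signal. The number of arrays limits the precision. Of 3673 called genes with several measured probes, 574 had a probe of opposite sign (15.6%).

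The genes named are a core of 26, the 10 highest and 10 lowest genes measured on all 6 arrays with all probes agreeing, the 6 largest minimum folds each way, up to 4 and 3 called members of each list by direction, and the 6 highest and 6 lowest of late over P1. Some genes that this rule names are not reported here. The members and lists (50 lists, 1429 of 1436 entries on the array) were chosen with earlier results of these data known. On data simulated for late against fresh with 21208 genes, 72 of 100 genes changed by 1.5 and 93 of 100 changed by 3 on the log2 scale were recovered, and 5 of 21008 unchanged genes were called. Far fewer genes were changed there than the 54.8% called in the data, and the groups had no scanner or background difference. These rates therefore do not carry over to the real comparison. Replicate numbers did not pair late and fresh arrays (correlations of deviations 0.042, 0.049 and -0.002). Promoter windows came from RefSeq (GRCm38.p6) and covered 12376 of the 21208 genes tested. Alternatives were quantile normalization, normexp (offset 50), spike-in scaling, the deposited table, other filters, the mean of probes, all 21 arrays, slide and replicate blocks, a 4-fold threshold and leaving out each array.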

Additional observations from a re-analysis of the deposited data

Results flagged for a closer look

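For 6 genes, late and P1 CLiPs differed from fresh hepatocytes in opposite directions, and the late minus P1 difference itself passed the test (limma, adjusted p from 2.7e-04 to 0.0017). Both were conditions by which the genes were picked, so these p-values are a description and no further support. The 6 genes have the largest late minus P1 difference among 27 such named genes that had the same probe in both comparisons and were dim in none of the 3 groups. Spink1 and Akr1c18 were picked out by these values. The late and P1 differences share the fresh arrays.

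Spink1, a trypsin inhibitor gene, had -6.98, -4.73 and -4.10 on late arrays, of which 2 were above background, 4.30, 3.83 and 5.16 on P1 arrays and -1.96, -1.89 and -2.44 on fresh arrays, a late minus P1 difference of -9.70. Col1a2 differed by -6.76 between late and P1 CLiPs (late over fresh -3.22, P1 over fresh 3.54), was above background on 1 late array, and had P1 levels of 3.60, 2.25 and 0.68 that spread widely. Akr1c18, a steroid dehydrogenase gene, differed by -6.31 (late over fresh -1.90, P1 over fresh 4.41). Reln, an extracellular matrix protein gene, differed by -5.77 (late over fresh -2.05, a call that was lost on leaving out any of 4 arrays, and P1 over fresh 3.73).

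The endothelial list's Flt1 went the other way, with -1.56, -2.30 and -2.48 on P1 arrays, below its late and fresh levels, and a late minus P1 difference of 6.01. Ifi204 did so as well (5.50), with 4.65, 2.60 and 3.02 on late arrays, -1.21, -2.11 and -2.91 on P1 arrays and 0.40, -1.29 and -0.28 on fresh arrays, so its P1 and fresh arrays overlap.

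Another 3 such genes were dim in a CLiP group and have only a minimum fold. Fst, whose product follistatin binds activin, was dim in late CLiPs and at least 60.2-fold lower than in P1 CLiPs, and S100g, a calcium-binding protein gene, was also dim there and at least 86.9-fold lower. Mndal, an interferon-inducible gene, was dim in P1 CLiPs and at least 23.3-fold higher in late CLiPs.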

How the results depend on the processing

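Scaling to the E1A spike-ins moved the counts to 17553 higher and 1410 lower genes and the share of higher calls to 92.6%, against 47.9%. It turned the medians of cholangiocyte (2.10), cholesterol synthesis (2.13), clock (0.77), erythroid (1.13), growth factor (2.33), interferon-stimulated (2.73), keratin (1.95), lipogenesis (0.27), liver transcription factor (0.54), lymphocyte (0.56), respiratory chain (1.27), stellate cell (1.34) and unfolded protein response genes (2.19), and the differences of Hnf4a (0.28), Mcm10 (0.63), Pttg1 (2.00), Ptprc (2.68), Reln (0.72), Slc10a1 (2.08) and Wt1 (2.18). It ended the calls of Apol9b (-1.32), Cdkn1c (-0.53), Col1a2 (-0.46), Fas (-0.12), Insig1 (-0.93) and Perp (-0.49). Normexp gave 4010 higher and 6253 lower genes (39.1% higher), 556 genes higher in late than in P1 CLiPs, a Wnt median of -0.64, -0.03 for Epcam, 0.092 for Ptprc and a call for Wt1 (-1.12, adjusted p = 1.6e-05), which is dim in fresh hepatocytes. Quantile normalization gave 6589 and 5442 and turned Slc10a1 (0.77) and Ptprc (0.10). With no filter on dim probes, 17042 genes were lower (24.8% of calls higher) and the median over all genes was -0.93. The Wnt (-0.73), collagen (-0.63), matrix protease (-0.021) and mesothelial medians (-0.58) turned. With only genes measured on all 6 arrays, 2929 were higher (37.6%), and the Wnt (-0.95), fetal liver (-1.25) and matrix protease medians (-0.43) turned. The mean of all probes turned the Wnt median (-0.22), Acta2 (-0.43), Mcm10 (0.13), Pttg1 (0.17) and Yap1 (-0.004), ended the call of Oas2 (2.07, adjusted p = 0.11) and made Ptprc (-1.61) and Slc10a1 (-7.55) pass. At 4-fold, 2888 genes were higher and 3115 lower. The slope of the spike-ins was 0.993 on the raw spot signal. Leaving out 1 array gave 5438 to 5644 higher and 5961 to 6158 lower genes, and 827 to 929 and 1510 to 1655 against P1. It moved Hhex between -0.015 and 0.47 and Irf7 between -0.73 and 0.53, neither called. Among medians near 0, it gave 0.23 for TGF-beta (without late replicate 2), 0.27 for Wnt and 0.007 for immediate early genes (both without fresh replicate 3), and -0.72 for growth factor and -0.32 for unfolded protein response genes (both without fresh replicate 2). Slide as a random block, an alternative chosen after seeing the data, gave 5409 and 6188. The replicate block gave 5571 higher and 6051 lower genes, and 912 and 1585 against P1, and among named genes it ended the call of Cdh1 (adjusted p = 0.057, limma). The deposited table gave 5577 and 6049. The cause of these changes was not tested, apart from the filters, which change the genes tested, and the spike-ins, which shift all genes. Genes dim in a group have only a bound there. Relative to the 75th percentile, the lowest signal well above background was -4.94 to -4.70 on late arrays and -3.34 to -3.23 on fresh arrays. A probe near background can therefore read lower on late arrays, and what part this has in small falls of weak genes was not tested.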

Other observations

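Clock genes had a common direction in late CLiPs and a wide spread in fresh hepatocytes. Of 16 tested, 10 fell and none rose (median -2.00, positive after scaling to the spike-ins). Nr1d1, a repressor of the clock, differed by -3.98, and Hlf, an output factor, was dim in late CLiPs and at least 130-fold lower. Genes named here were chosen after their values were seen. Dbp, another output factor, had -0.67, -0.76 and -0.55 on late arrays and 7.51, 3.45 and 0.01 on fresh arrays, so its difference of -4.32 was not called (limma adjusted p = 0.060). Arntl, the core activator, ran the other way among fresh arrays, with 0.13, 0.10 and 0.16 on late arrays and -1.08, 1.80 and 2.39 on fresh arrays (-0.90, adjusted p = 0.37). Per1 had 3.05, 2.79 and 3.13 on late arrays and 3.69, 1.69 and 0.39 on fresh arrays. The late arrays lay close together for all 3 of these genes, and fresh replicate 1 was the highest fresh array for Dbp and Per1 and the lowest for Arntl. Times of isolation are not given in the sources used here.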
